A study of Sus scrofa with 2 samples.

Results

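The genes described here encode the machinery that folds, modifies, exports, trims and crosslinks collagen. They are 38 genes chosen by name for these roles and not by their level. The gene name table paired 34 of them with an identifier in the deposited table of 25880 identifiers. The other 4, COLGALT1, CRTAP, MIA2 and SEC23A, had no identifier under these symbols and were not analysed here. The cells were PSI, a clone of smooth muscle cells from the ileum, the last part of the pig small intestine, grown in DMEM medium with 10% fetal bovine serum and 1% antibiotics. RNA-seq was done on 2 libraries of this clone, the only group of the series, with no tissue, treatment or second clone beside it. The labels name no separate cultures for the duplicates, so each SD measures the spread between 2 libraries of 1 clone, which may be technical. With 1 group, no test between conditions exists, and everything below is a description of these libraries.

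Collagen is made in the endoplasmic reticulum, where its prolines and lysines are hydroxylated, sugars are added to some lysines, and dedicated chaperones hold the chains until the triple helix has formed. The rigid trimer then leaves in enlarged transport carriers, its end propeptides are cut off outside the cell, and lysyl oxidases start the crosslinks between molecules. Intestinal smooth muscle is among the cells that lay down the collagen of the gut wall.

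Expression was given as FPKM, fragments counted per kilobase of gene model and scaled to the size of the library, a unit in which different genes can be compared. Each value covers the whole counted gene model. The steps of the values gave totals of 35176565 (replicate 1) and 32217729 (replicate 2), at which 1 fragment per kilobase is worth 0.0284 and 0.0310 FPKM. Detected means here that neither library was below 1 FPKM. Smooth muscle markers were mixed: 7 of 10 were detected, against 61.5% of all identifiers with a gene symbol. Only 5 of the 10 were at 10 FPKM or more in both libraries, and 1 was listed at 0. ACTA2 was at 693 ± 11.8 FPKM (SD, n = 2) and CNN1 at 254 ± 1.02, whereas MYH11 was at 0.491 ± 0.0433. Of 40 measured markers of fibroblasts, epithelium, endothelium, leukocytes, glia and neurons, 6 were detected and 14 were listed at 0, and their summed level was 14.6 and 13.99 FPKM in replicates 1 and 2. By cell type, 3 of 8 fibroblast, 2 of 8 leukocyte, 1 of 7 endothelium, 0 of 10 epithelium and 0 of 7 glia and neuron markers were detected. The highest fibroblast marker had a mean of 2.24 FPKM. In bulk RNA, a gene active in few cells and a gene weakly active in all cells cannot be told apart.

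Most of the machinery was expressed, and its 3 most abundant transcripts encode a collagen chaperone, a subunit of prolyl hydroxylase and the enzyme that cuts the propeptide at the carboxyl end. SERPINH1, P4HB and BMP1 together held 46.4% ± 0.372 (SD, n = 2) of the summed FPKM of the 34 genes. Of the 34, 30 were detected, where 40.9% of all identifiers and 61.5% of those with a symbol were. At 10 FPKM or more in both libraries stood 27 of the 34, against 21.3% of all identifiers and 32.8% of those with a symbol. At 100 FPKM or more stood 7, namely SERPINH1, P4HB, BMP1, LOX, FKBP10, LOXL2 and CREB3L1, against 2.10% and 2.98%. The median level was 5.30 on the log2(FPKM + 1) scale, against 0.22 over all identifiers, 2.29 over those with a symbol and 3.58 over those detected. The 4 genes not detected were LOXL4, TLL1, TLL2 and COLGALT2.

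**Figure D1:**
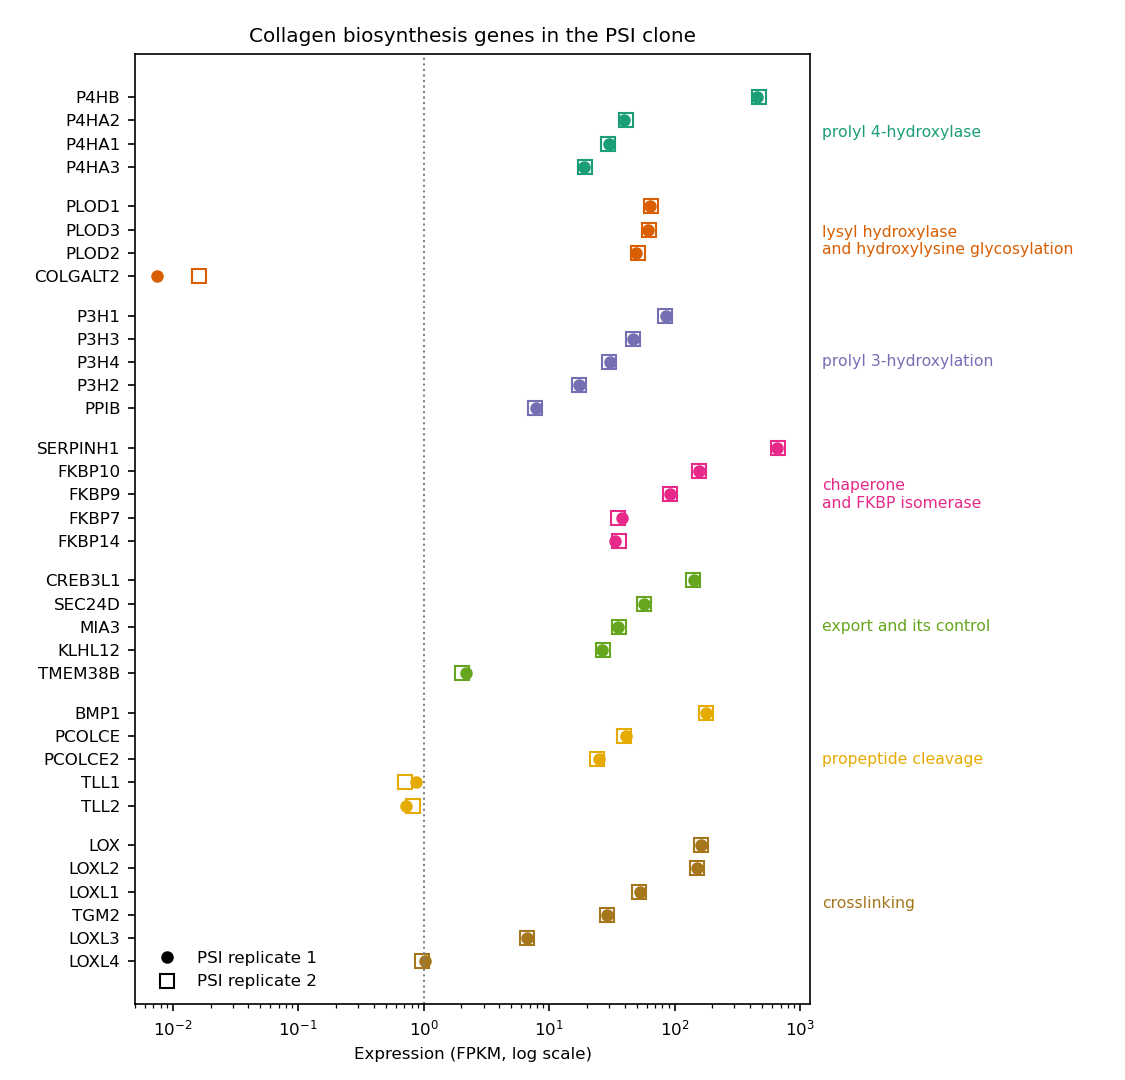
Each row is a gene of the collagen machinery, grouped by role, and the horizontal axis is its FPKM on a log scale. Filled circles are replicate 1, open squares are replicate 2 and the dotted line marks 1 FPKM. The levels ran from 0.0118 FPKM for COLGALT2 to 663 for SERPINH1, and the libraries lay close together at every gene above 2 FPKM.

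Prolyl 4-hydroxylase, the enzyme that makes the hydroxyproline on which the stability of the triple helix depends, is a tetramer of alpha subunits, which carry the active site, and beta subunits. P4HB, the beta subunit, had 455 FPKM in replicate 1 and 467 in replicate 2. It is also a disulfide isomerase in its own right, free of the alpha subunits. All 3 alpha subunit genes were detected at much lower levels. P4HA2 had 39.6 and 41.2 FPKM, P4HA1 had 29.9 and 29.6, and P4HA3 had 18.9 and 19.2, and no library of one overlapped those of the next. P4HA2 thus held 45.3% ± 0.682 (SD, n = 2) of the summed alpha subunit FPKM, P4HA1 held 33.4% ± 0.636 and P4HA3 held 21.4% ± 0.0458. In RefSeq, PDLIM4 overlaps 14990 bp and SLC22A4 602 bp of the P4HA2 gene, and NUDT13 overlaps 1066 bp of the P4HA1 gene. The values of P4HA2 and P4HA1 are therefore uncertain where exons overlap. The beta subunit transcript stood 5.17 ± 0.0303 times above the sum of the 3 alpha subunits. By recovered reads, which are not corrected for length, P4HA2 held 25.2% and P4HA1 held 58.2%. The lengths behind these reads, 1604 bp for P4HA2 and 5026 bp for P4HA1, are the shortest that give whole reads, so the true reads of either can be a multiple of those recovered.

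Lysyl hydroxylases prepare lysines for sugars and for crosslinks. The 3 enzymes differ in where they act: the product of PLOD1 modifies lysines of the helix, that of PLOD2 those of the short telopeptides at the ends, and that of PLOD3 also adds sugar. Their transcripts were nearly level. PLOD1 had 64.1 and 64.3 FPKM in replicates 1 and 2, PLOD3 had 61.6 and 62.8, and PLOD2 had 49.2 and 51.2. The libraries of each gene lay apart from those of the next, with shares of 36.4% ± 0.390 (SD, n = 2) for PLOD1, 35.2% ± 0.00274 for PLOD3 and 28.4% ± 0.393 for PLOD2. In RefSeq, ZNHIT1 overlaps 653 bp of the PLOD3 gene, so the value of PLOD3 is uncertain where exons overlap. By recovered reads, which are not corrected for length, PLOD2 (33.1%) stood above PLOD3 (29.4%), and PLOD1 held 37.6%. The recovered lengths were 4617 bp for PLOD2 and 3310 bp for PLOD3, so these reads do not settle the order of the pair. COLGALT2, one of a pair of genes for the enzyme that adds galactose to hydroxylysine, was nearly silent, with 0.00744 and 0.0162 FPKM from 1 and 2 reads. Its more widely used partner COLGALT1 is one of the 4 genes without a matched identifier.

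Prolyl 3-hydroxylation is a rarer modification of a few prolines. P3H1, the enzyme that works in a complex with CRTAP and the isomerase cyclophilin B, had 84.8 and 83.95 FPKM in replicates 1 and 2. P3H3 had 46.5 and 46.6, and P3H4, a family member without enzyme activity, had 30.8 and 30.2. The products of both act with lysyl hydroxylase 1, the product of PLOD1, on lysines of the helix. P3H2, whose product prefers the collagen of basement membranes, was lowest of the enzymes with 17.2 and 17.4 FPKM. Among P3H1, P3H2 and P3H3, P3H1 held 56.9% ± 0.261 (SD, n = 2) of the summed level.

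The identifier paired with PPIB, the gene of cyclophilin B, was listed far below the enzyme with which cyclophilin B forms a complex, but its gene model or its pairing with the symbol may be wrong. It had 7.83 and 7.71 FPKM in replicates 1 and 2, from 1374 and 1240 reads. Cyclophilin B is otherwise known as an abundant isomerase of many cell types. The gene model used for PPIB was long for its locus: the recovered length was 4989 bp, 76.8% of the 6493 bp that RefSeq gives the whole gene with its introns. This was the highest such share among the 34 genes, of which PLOD3 with 42.8% came next. RefSeq also places SNX22 over 1458 bp of the PPIB locus. The part of either in the low value was not tested.

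Chaperones formed the role with the highest median, 6.53 on the log2(FPKM + 1) scale, and all 5 of its genes were above 10 FPKM. SERPINH1, a serpin without protease inhibitor activity that binds the folded collagen helix and is dedicated to collagen, had 655 FPKM in replicate 1 and 672 in replicate 2. It ranked 50 among all identifiers and was the highest of the 34 genes, with both libraries above both of P4HB. In RefSeq, the noncoding RNA gene LOC102161477 overlaps 4385 of the 11547 bp of the SERPINH1 gene. The value of SERPINH1 is therefore uncertain where exons overlap. The level of SERPINH1 was 1.43 ± 0.0320 (SD, n = 2) times that of HSPA5, the general chaperone of the endoplasmic reticulum. FKBP10, an isomerase that also assists the product of PLOD2, had 155 and 156 FPKM. FKBP9 had 91.4 and 91.2 FPKM, FKBP7 had 38.1 and 35.4, and FKBP14, which when mutated causes a form of Ehlers-Danlos syndrome, had 33.6 and 35.8. Both FKBP10 and FKBP9 lay clear of the other FKBP genes, whereas FKBP7 and FKBP14 overlapped between libraries. FKBP10 held 48.9% ± 0.221 of the summed level of these 4 isomerases.

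Procollagen is too long for ordinary transport vesicles. The cargo receptor encoded by MIA3 binds collagen at the exit sites of the endoplasmic reticulum and recruits the inner coat, of which the product of SEC24D is a part, and the product of KLHL12 guides a ubiquitin ligase to the outer coat. SEC24D had 56.6 and 56.9 FPKM in replicates 1 and 2, MIA3 had 35.4 and 36.3, and KLHL12 had 26.3 and 26.7. Each was detected far above 1 FPKM, and they kept this order in both libraries. SEC24D was 2.31 ± 0.00138 (SD, n = 2) times as high as its paralog SEC24C (24.6 ± 0.124 FPKM). The SEC24D gene spans SYNPO2 and MYOZ2 in RefSeq, so its value is uncertain where exons overlap.

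CREB3L1, a transcription factor held in the membrane of the endoplasmic reticulum and known to drive collagen genes and SEC24D, was the highest gene of the export role. It had 142 and 141 FPKM in replicates 1 and 2 and ranked 361 among all identifiers. TMEM38B, an ion channel of the endoplasmic reticulum that supports calcium release and, when lost, causes brittle bone disease, stood at the other end with 2.18 and 2.04 FPKM from 489 and 418 reads. It was the lowest of the 30 detected genes.

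Outside the cell, 1 protease gene made up nearly all of its family. BMP1, whose product removes the propeptide at the carboxyl end of fibrillar procollagens, had 176 FPKM in replicate 1 and 178 in replicate 2. Its relatives TLL1 and TLL2 had 0.864 and 0.707, and 0.728 and 0.817, and could not be ordered, since their libraries overlapped. BMP1 held 99.1% ± 0.0311 (SD, n = 2) of the summed level and stood 114 ± 4.10 times above the sum of the relatives. Both genes for proteins that enhance this cleavage were detected. PCOLCE had 40.6 and 39.4 FPKM and PCOLCE2 had 25.1 and 24.2, with no overlap, which gave PCOLCE a share of 61.9% ± 0.0615. In RefSeq, FBXO24 overlaps 5289 of the 5295 bp of the PCOLCE gene, so its value is uncertain where exons overlap.

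Lysyl oxidases oxidise lysines so that neighbouring collagen and elastin molecules can crosslink. LOX, whose product is itself activated by the product of BMP1, had 161 FPKM in replicate 1 and 164 in replicate 2. LOXL2 had 150 and 151, just below and with no overlap, and LOXL1, best known for its role in elastic fibres, had 53.4 and 52.1. LOX and LOXL2 together made up most of the family, with 43.5% ± 0.279 (SD, n = 2) and 40.4% ± 0.0478 of its summed level. LOXL3 was low with 6.71 and 6.65 FPKM, and LOXL4 had 1.02 and 0.978, on either side of the level at which a gene was called detected. By recovered reads, which are not corrected for length, LOX held 19.9% and LOXL2 56.4%. The recovered length of LOX, 768 bp, is the shortest that gives whole reads, and its true reads can be a multiple of those recovered, so these reads do not settle the order of the pair. The LOX locus lies within the span of the protein-coding RefSeq gene LOC100525452. The value of LOX, and its order with LOXL2, are therefore uncertain where exons overlap.

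TGM2, a transglutaminase that joins matrix proteins through glutamine and lysine, had 28.9 and 28.8 FPKM in replicates 1 and 2. None of the other 6 measured transglutaminase genes was detected. The highest of them, TGM5, had 1.06 and 0.910 FPKM, TGM1 had 0 and 0.00914, and TGM3, TGM6, TGM7 and F13A1 were listed at 0.

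**Figure D2:**
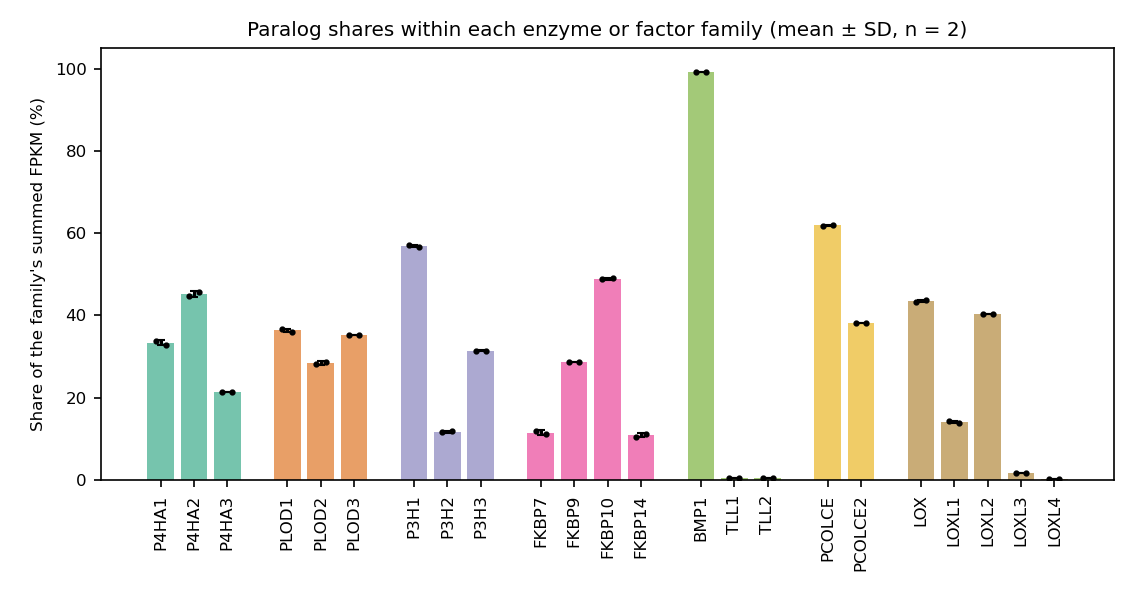
Bars give the share of each gene in the summed FPKM of its family, as the mean of 2 libraries with the SD as error bars, and dots give each library. BMP1 held 99.1% of its family, whereas the PLOD genes held from 28.4% to 36.4% each.

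Ordered by mean level, 29 of the 33 neighbouring pairs among the 34 genes were separated, in that both libraries of one lay above both libraries of the next. The 4 pairs that overlapped were P4HA2 with PCOLCE, FKBP7 with MIA3, MIA3 with FKBP14, and TLL1 with TLL2. Separation in this sense covers the difference between libraries only. An error from a gene model or an overlapping gene is shared by both libraries and could change the order. The libraries differed by 0.0983% to 7.37% of the mean among the 30 detected genes, with a median of 1.51%, and by a median of 3.63% over all detected identifiers. The difference was under 5% in 27 of the 30, and the 3 above it were FKBP7, TMEM38B and FKBP14. Of the 34 genes, 19 were higher in replicate 2 and 15 in replicate 1, and 52.2% of all identifiers with reads were higher in replicate 2.

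An exact binomial test on recovered reads, with Benjamini-Hochberg adjustment over 16327 identifiers, called 1 of the 34 genes, where 1.11% of all identifiers tested were called. That gene was P4HB, with 39805 and 37477 reads and an adjusted p of 0.0189, a difference of 2.76% of its mean. By the same exact binomial test SERPINH1, which differed by 2.62% in the same direction, did not pass (adjusted p = 0.150), nor did PLOD2 (adjusted p = 0.285) or FKBP14 (adjusted p = 0.476). These 4 genes had an unadjusted p under 0.05, as did 10.2% of all identifiers tested. Only the duplicates are compared by it. For genes whose recovered length is far too short, such as FKBP7 with 50 bp and 67 and 57 reads, the true reads are a multiple of those tested. The recovered length of SERPINH1, 1082 bp, is also only the shortest that gives whole reads, so its true reads can be a multiple. Too few reads weaken the test, so it does not settle whether SERPINH1 and P4HB differ in this respect. The count of 1 gene called rests on the recovered reads.

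**Figure D3:**
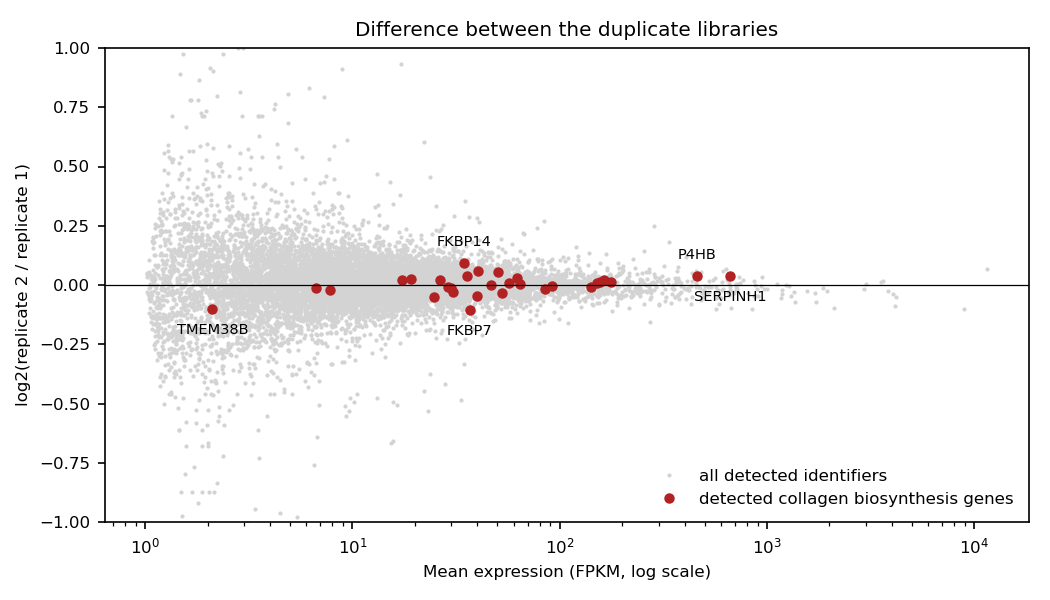
Each dot is an identifier detected in both libraries, with its mean FPKM on a log scale across and the log2 ratio of replicate 2 over replicate 1 upwards; 31 identifiers lie outside the plotted range. The genes of the collagen machinery, in red, lie close to 0, and the 3 farthest from it are FKBP7, TMEM38B and FKBP14, at 6.53% to 7.37% of the mean.

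The machinery was then set beside its substrates in the same libraries. The 11 fibrillar collagen chain genes summed to 9279 and 9385 FPKM in replicates 1 and 2, of which COL1A1 (3608 ± 29.0, SD, n = 2), COL1A2 (3555 ± 20.5), COL5A1 (946 ± 15.2) and COL3A1 (763 ± 7.43) were the highest. COL2A1 and COL24A1 were under 1 FPKM and COL11A2 was listed at 0. All 34 genes of the machinery summed to 30.0 ± 0.0302 FPKM per 100 FPKM of fibrillar chains. SERPINH1 gave 7.11 ± 0.0743 per 100 and P4HB gave 4.94 ± 0.0565. BMP1 followed with 1.898 ± 0.00512, LOX with 1.74 ± 0.00361, FKBP10 with 1.67 ± 0.00391, LOXL2 with 1.62 ± 0.00512 and CREB3L1 with 1.52 ± 0.0200. Every other gene of the machinery was under 1 per 100. COL1A1 and COL1A2, the chains of type I collagen, made up most of that sum, and the ratio per 100 FPKM of COL1A1 and COL1A2 alone was 9.26 for SERPINH1. Of the other collagen chains, 12 of 27 measured were detected, led by COL6A1 (657 ± 12.6), COL6A2 (636 ± 21.2) and COL15A1 (289 ± 0.403).

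The enzymes for the other end of procollagen were lower than BMP1. ADAMTS2, the main protease of the propeptide at the amino end, had 13.8 and 14.1 FPKM in replicates 1 and 2, and BMP1 was 12.7 ± 0.110 (SD, n = 2) times as high. ADAMTS14 had 6.57 and 6.52, and ADAMTS3 had 0.971 and 1.00, so 2 of the 4 measured genes were detected. MEP1B had 0.00839 and 0 FPKM.

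General genes of the secretory pathway gave the level of machinery that is not specific to collagen. All 18 measured general chaperones and oxidoreductases of the endoplasmic reticulum were detected, with a median of 5.76 on the log2(FPKM + 1) scale. That was above the median of 5.30 over the 34 genes of the collagen machinery. PDIA3 (657 ± 14.01 FPKM, SD, n = 2), a glycoprotein disulfide isomerase, was at the level of SERPINH1, and HSPA5 (465 ± 1.82) was at the level of P4HB, the libraries overlapping in both pairs. CALR, a lectin chaperone, had 386 ± 1.79. Of 13 general genes of the coat of transport vesicles, 10 were detected, with a median of 4.42. SEC13 (121 ± 1.17) and SEC31A (70.8 ± 1.32), which form the outer coat, and SAR1A (67.6 ± 1.55), the GTPase that starts coat assembly, were highest, above SEC24D. SEC31B and SEC16B were under 1 FPKM, as was PREB, for which the recovered model length of 4656 bp exceeds the RefSeq gene of 3831 bp, so its pairing with the symbol is doubtful. No such excess was found in any of the 34 genes, against 1.41% of 8578 detected identifiers with a unique symbol. With so low a share, this count says little about the 34 genes. The recovered length is the shortest that fits, so an excess can also be missed.

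Other prolyl isomerases and hydroxylases ranged from FKBP4 at over 100 FPKM to genes listed at 0. Of 20 measured isomerases, 18 were detected, with a median of 3.83, led by the cytosolic FKBP4 (123 ± 4.26 FPKM, SD, n = 2) and by FKBP8 (85.8 ± 1.22). FKBP2, whose model is longer than its RefSeq gene, was under 1 FPKM and FKBP6 was listed at 0. Of the prolyl hydroxylases that act on other proteins, EGLN1, the oxygen sensor, had 10.8 and 11.7 FPKM in replicates 1 and 2, EGLN3 had 0.953 and 1.02, and P4HTM was listed at 0. Among 11 measured further genes linked to brittle bone disease and collagen assembly, 10 were detected. They were led by SPARC (2935 ± 22.5), a collagen-binding secreted glycoprotein, KDELR2 (102 ± 0.789), the receptor that returns escaped chaperones such as SERPINH1 to the endoplasmic reticulum, and MESD (88.5 ± 1.70), a chaperone of lipoprotein receptors. SERPINF1 was the gene not detected, with 1.05 and 0.723 FPKM.

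**Figure D4:**
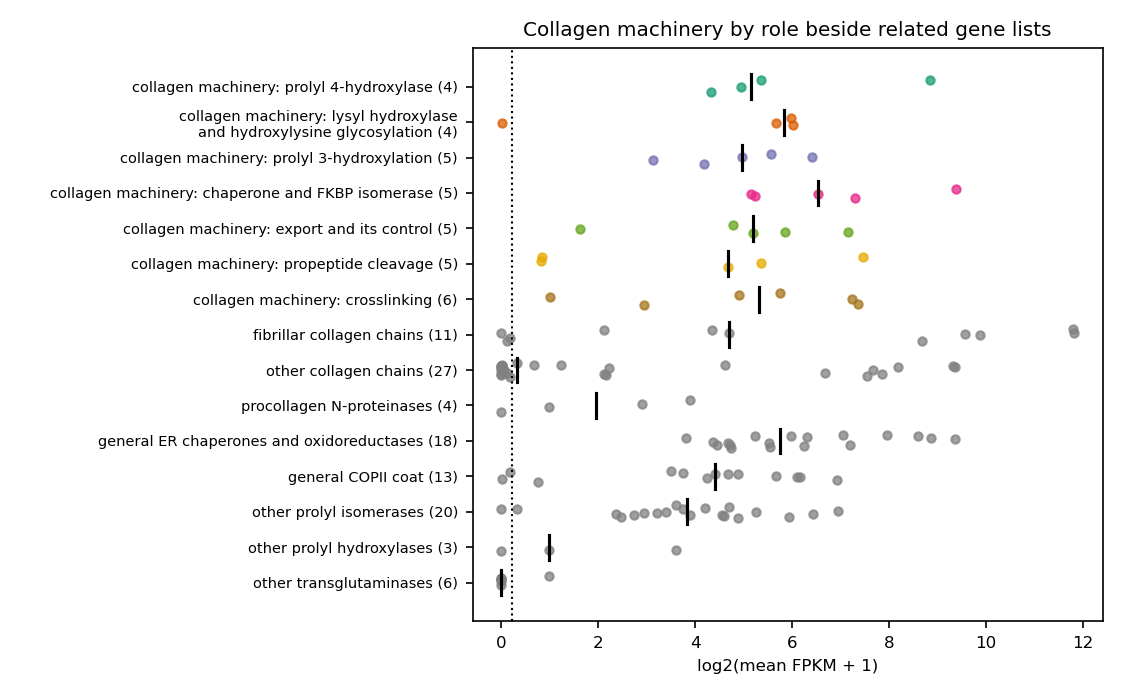
Each dot is a gene at its log2(mean FPKM + 1), in rows by role or list with the number of measured genes in brackets. Vertical bars are row medians and the dotted line is the median of all identifiers, 0.22. The chaperones and FKBP isomerases, the highest role, had a median of 6.53, and the general chaperones one of 5.76. Over all 34 genes of the collagen machinery the median was 5.30, below that of the general chaperones.

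All 38 genes are protein-coding in the RefSeq annotation of the Sscrofa11.1 assembly, which was joined by symbol and not by position. SERPINH1 (ENSSSCG00000039468) lies on chromosome 9 from 9782939 to 9794485, P4HB (ENSSSCG00000039148) on chromosome 12 from 1121816 to 1131291, and BMP1 (ENSSSCG00000009620) on chromosome 14 from 6443773 to 6489066. LOX (ENSSSCG00000014232) lies on chromosome 2 from 125595115 to 125607026, LOXL2 (ENSSSCG00000033608) on chromosome 14 from 7435861 to 7540699, and CREB3L1 (ENSSSCG00000013263) on chromosome 2 from 16186206 to 16220948. FKBP10 (ENSSSCG00000017422), on chromosome 12 from 20872155 to 20881604, and P3H4 (ENSSSCG00000017429), from 20881807 to 20891482, are direct neighbours with 202 bp between them. Their levels were 156 ± 0.893 and 30.5 ± 0.430 FPKM (SD, n = 2). No other pair lay so close: PLOD3 and PCOLCE on chromosome 3 were 383 kb apart with 26 protein-coding genes between them, and BMP1 and LOXL2 on chromosome 14 were 947 kb apart with 16 between them. Of the 34 measured genes, 13 overlap another RefSeq gene, 8 of them a protein-coding one, and without a stated strand setting reads from overlapping exons cannot be assigned with certainty.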

How the data were processed

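RNA-seq was done on 2 libraries of the PSI clone. Per the labels' protocols, TRIzol was used for RNA and the NEBNext Ultra kit for libraries. TopHat2 2.0.12, HTSeq 0.6.1 and the build Sscrofa11.1 stand in the submitters' processing notes; annotation release, strand setting and filters were not given in the sources used here. Values were deposited by the authors as FPKM, 1 column per library.

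A gene name table matched 14857 of the 25880 identifiers to symbols. With Python 3.11.15, numpy 2.4.6 and scipy 1.17.1, library totals and whole reads were recovered from the FPKM steps: for each gene the shortest length between 50 and 30000 bp was taken at which both libraries have whole reads, to 1.2 times the rounding. All 16327 genes above 0 (100%) had one, and the reads summed to 90.8% of each total. Where reads and length share a divisor, the recovered reads are too few by that factor. In simulated duplicates of 25880 identifiers the totals came back exact, and of 15799 genes 84.9% had their true reads and 0% had more. There the exact binomial test called 97% of 100 genes changed 1.5-fold, 100% of 100 changed 2-fold and 0.0321% of unchanged genes. The changed genes were drawn only from those with many reads, very short lengths were raised, and noise was counting error alone. These rates therefore do not carry over to genes with few reads, such as COLGALT2 and TLL1. In the real duplicates 1.11% of the identifiers tested were called. Reads are not independent molecules, so the test covers counting error only. Medians are of log2(FPKM + 1), a scale on which low values are compressed.

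The genes, lists and tests were chosen with earlier results of these data known. Every listed gene is accounted for; of each comparison list the 3 highest genes, genes under 1 FPKM in both libraries where there were at most 5, and a few set by role (such as HSPA5, ADAMTS2 and SEC24C) are named. SERPINF1, TGM3, TGM6, TGM7 and F13A1 were named after their values were seen. The value of 1 gene that this rule names is not reported here. Protein features were not analysed here. Alternatives changed the detection level, pseudocount, scaling, collagen sum and read basis, and left out each library.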

Additional observations from a re-analysis of the deposited data

How the results depend on the processing

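No paired analysis was possible because the series has 1 group. The count of 30 detected genes was 33 at 0.5 FPKM, 30 at 2 FPKM and 33 after rescaling each library to a common sum (TPM). It was 30 without replicate 1 and 31, with LOXL4, without replicate 2. Of all identifiers, 40.9% were detected at 1 FPKM and 45.4% at 1 TPM, so 1 TPM is a looser cutoff for every gene. Shares of all identifiers at 0.5 and 2 FPKM are not given here, so those counts have no background beside them. The median level of 5.30 was 5.26 with a pseudocount of 0.1 and 6.72 as TPM, which moves every gene by 1.44 on the log2 scale before the pseudocount and the median of all identifiers from 0.22 to 0.54. By recovered reads in place of FPKM, shares were 25.2% for P4HA2, 37.6% for PLOD1 (with PLOD2 at 33.1% above PLOD3 at 29.4%), 67.7% for P3H1, 59.5% for FKBP10, 58.1% for PCOLCE and 19.9% for LOX, and BMP1 kept 99.1%. These reads are not corrected for gene length and can be too few, most plainly for FKBP7. Per 100 FPKM of COL1A1 and COL1A2 alone, the whole machinery gave 39.1, SERPINH1 9.26 and P4HB 6.44; per 100 of all measured collagen chains they gave 24.0, 5.68 and 3.95. Leaving out a library gives the value of the other, which with 2 libraries lies within 1 SD of the mean by construction. None of the 34 genes was at 0 in both libraries, so leaving out such genes changed no median. The count of 1 gene that differed between libraries was also 1 when scaled by summed reads and when genes under 1 FPKM were not tested. Each of these counts rests on the recovered reads, which can be too few. Depth limits TLL1, TLL2 and COLGALT2, with 69 to 111 reads per library for the first pair and 1 and 2 for the last.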
